A study of Mus musculus with 6 samples.

Results

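The nuclear genes of oxidative phosphorylation were examined in the jejunum of mice lacking TIS7 (Ifrd1) and SKMc15 (Ifrd2). Genes were taken by symbol: those beginning with Nduf, Uqcr, Atp5 or Cox4 to Cox8, together with Sdha, Sdhb, Sdhc and Sdhd. The platform annotation assigned 179 of the 45101 probe sets to 90 such genes, of 18194 genes that a probe set names alone. Where a gene had several probe sets, the brightest on average across the 6 arrays was used. Of the 90 genes, 83 had a log2 value above 4 on at least 3 arrays and were tested. The other 7 (Ndufb4, Ndufa4l2, Cox4i2, Cox6a2, Cox7b2, Cox8b and Cox8c) lay below 4 on all 6 arrays and were not tested. The annotation named 1 probe set for 39 of the genes and several for 51.

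Male C57BL/6 mice, 7 to 10 weeks old and housed singly, were either wild type (3 mice, numbered 1, 3 and 4) or double knockout for both genes (3 mice, numbered 1, 2 and 3). Both groups ate the same high saturated fat diet, with 42% of kcal from milk fat and 0.2% from cholesterol, and the tissue came from animals fed it for 3 weeks. Each Affymetrix whole-genome array held the RNA of 1 mouse, prepared from 500 ng of total RNA. Neither a group on ordinary chow nor a single knockout was part of the comparison, and how the alleles were made, and which exons they lack, is not given in the sources used here.

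Oxidative phosphorylation takes place on the inner mitochondrial membrane. Complex I (NADH dehydrogenase) and complex II (succinate dehydrogenase) pass electrons to ubiquinone, complex III hands them to cytochrome c, and complex IV passes them to oxygen. The proton gradient built up on the way drives complex V, the ATP synthase. In the small intestine the absorptive enterocytes spend this ATP on nutrient uptake and on packing dietary fat into chylomicrons. Complex I has many subunits and is put together with dedicated assembly factors, which are not part of the finished enzyme.

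The targeted genes were low in the double knockout mice. Ifrd1 averaged 9.92 ± 0.08 (SD, n = 3) in wild type and 5.30 ± 0.83 (SD, n = 3) in double knockout mice, with an adjusted p of 0.00894 by limma with Benjamini-Hochberg adjustment over all tested probe sets. Ifrd2 averaged 8.38 ± 0.21 in wild type and lay below 4 in every double knockout mouse, at least 20.8-fold lower against that minimum (adjusted p = 2.37e-05). Of 13 enterocyte markers, 12 had a negative log2 fold change (median -0.09, 1 called, Treh), and their summed linear level was 142678 to 146189 in wild type and 131650 to 136434 in double knockout mice. All 5 measured crypt and division markers had a positive one (median 0.45, 2 called, Top2a and Plk1), with sums of 4592 to 6007 and 6202 to 6712. Markers of ileum, stomach or colon (5 of 5), pancreatic acinar cells (3 of 3) and red blood cells (2 of 2) were below 4 on all arrays. Smooth muscle markers summed to 8610 to 9872 in wild type and 8336 to 10619 in double knockout mice, with 0 of 6 called by limma and 0 at an unadjusted p below 0.05. All 5 fibroblast markers had a positive log2 fold change (median 0.51, 0 called by limma, 2 at an unadjusted p below 0.05), with sums of 2821 to 4663 in wild type and 4418 to 5763 in double knockout mice. Of the macrophage and dendritic cell markers, all 3 tested were positive (median 0.31, 0 called by limma and 0 at an unadjusted p below 0.05), with sums of 1169 to 2504 and 2286 to 2830. The 3′ minus 5′ difference of the Actb and Gapdh control probe sets, on the log2 scale, was 0.35, 0.49 and 0.36 in wild type mice 1, 3 and 4 and 0.60, 0.41 and 0.61 in double knockout mice 1, 2 and 3. The part of these shifts in the results on the respiratory genes was not tested, and in bulk tissue fewer cells of a type and less RNA per cell cannot be told apart.

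The structural subunits of the 5 complexes had nearly the same level in both genotypes, while 2 assembly factors of complex I, Ndufaf4 and Ndufaf6, rose in double knockout mice. These were the only genes of the 83 to pass an adjusted p of 0.05, both higher and none lower, or 2.41% of the set. Among all 18013 tested probe sets 4.47% passed (805), of which 458 were higher (2.54%) and 347 lower (1.93%). At an unadjusted p below 0.05 the set held 6 genes (7.23%), against 27.1% of all tested probe sets. The log2 fold change (double knockout minus wild type) was positive for 39 genes and negative for 44, with a median of -0.01, against a median of 0.03 and 53.6% positive over all tested probe sets.

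**Figure D1:**
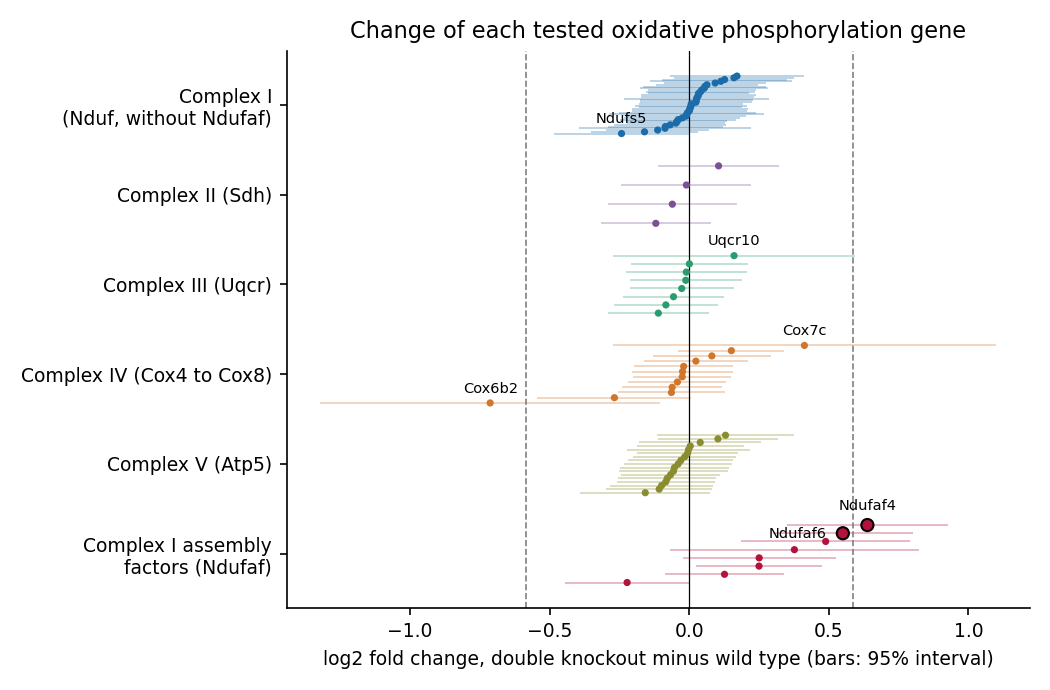
Log2 fold change of each of the 83 tested genes (points) with its 95% interval from limma (bars), grouped by the complex its symbol names, with the assembly factors of complex I set apart. Dashed lines mark a 1.5-fold change either way; the 2 outlined points, Ndufaf4 and Ndufaf6, passed the adjusted threshold, and Cox6b2 and Cox7c have the widest intervals.

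Setting aside the 8 assembly factors, Ndufa4l2 and the supercomplex factor Cox7a2l leaves 80 genes of structural subunits, of which 74 were tested. By limma 0 of the 74 passed the adjusted threshold, and 2 (Ndufs5 and Cox6b2) had an unadjusted p below 0.05. The log2 fold change was positive for 31 and negative for 43, with a median of -0.01. For 71 of 74 (95.9%) the 95% interval of the change lay within 1.5-fold either way, and for 44 (59.5%) it lay within 1.2-fold. Over all tested probe sets the corresponding shares were 62.1% and 7.45%. These subunits thus had narrow intervals around a change near 0, and the 3 exceptions at 1.5-fold were Uqcr10, Cox7c and Cox6b2.

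The subunit transcripts were among the brightest signals on the arrays. Of the 74 subunits, 66 (89.2%) had a mean log2 value above 11, a level reached by 1405 (7.80%) of the tested probe sets. Their standard deviations between mice were small, with a median of 0.04 in wild type and 0.06 in double knockout mice, against 0.13 and 0.14 over all tested probe sets. Among probe sets above 11, 1.71% were called (24 of 1405), 89.8% had an interval within 1.5-fold and 22.3% within 1.2-fold. Of the 66 subunits above 11, 65 had an interval within 1.5-fold and 42 (63.6%) within 1.2-fold. How far the brightest signals are compressed on this platform was not tested; the highest value of any probe set on any array was 14.2.

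**Figure D2:**
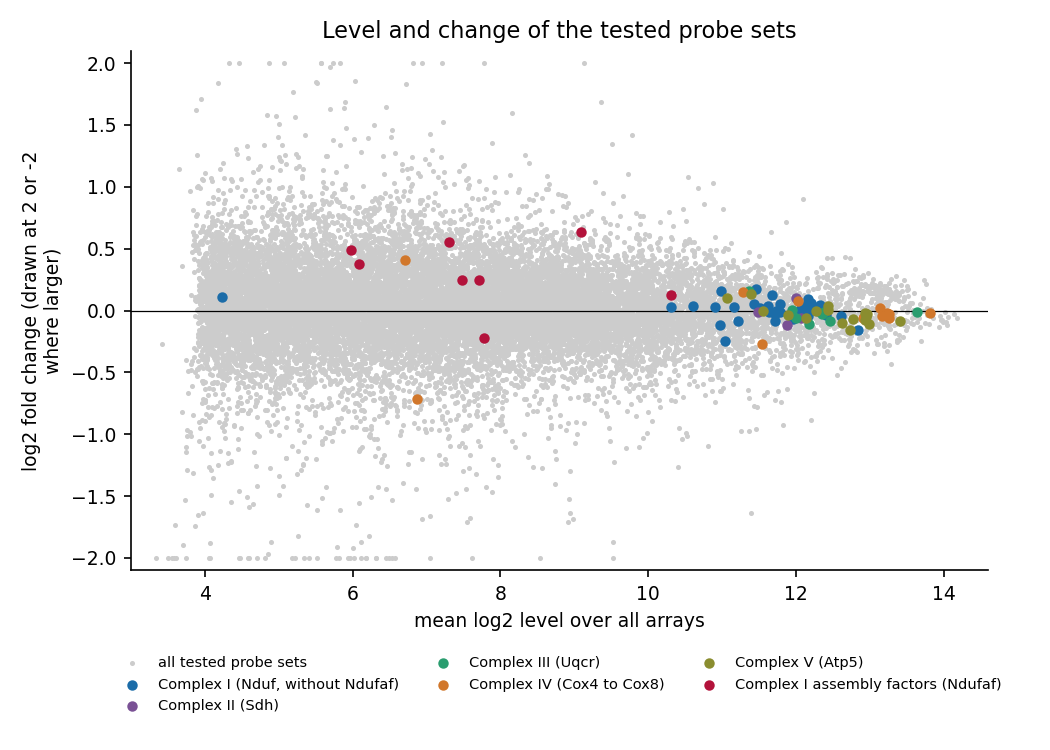
Mean log2 level over the 6 arrays (horizontal) against log2 fold change (vertical) for all tested probe sets (grey), structural subunits and Ndufaf assembly factors. Of the 74 subunits, 66 lie above a level of 11 and close to 0, while the 8 assembly factors lie between 5.97 and 10.3.

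More subunits lay wholly below than wholly above the wild type values. The values of the genotypes did not overlap for 16 of 74 subunits that were lower (21.6%) and 2 that were higher (2.70%) in double knockout mice, against 14.8% and 19.5% of all tested probe sets. Among probe sets with a mean above 11 the shares were 21.3% lower and 22.1% higher. The lower share of the subunits was thus close to that of probe sets of this level, while their higher share was below it. Leaving out Cox6b2 and Ndufs5, the 14 lower ones had log2 fold changes of -0.16 to -0.02. The 2 higher ones were Ndufa8 and Ndufc2, both accessory subunits of complex I, at 0.16 and 0.09. None of these 18 passed the adjusted threshold.

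Complex I, the entry point for electrons from NADH, had 33 tested structural subunits, with 21 log2 fold changes above and 12 below 0 and a median of 0.01. All 33 intervals lay within 1.5-fold and 18 lay within 1.2-fold. The 6 tested core subunits, which carry the flavin and iron-sulphur clusters or bind near the quinone site, ranged from -0.01 for Ndufs8 and Ndufv1 to 0.13 for Ndufs7. Ndufv1, which binds NADH, was 11.62, 11.67 and 11.63 in wild type mice 1, 3 and 4 and 11.55, 11.76 and 11.58 in double knockout mice 1, 2 and 3, so the wild type values lay inside the double knockout range. The 27 tested accessory subunits, which surround the core, had a median of 0.01 and ranged from -0.24 to 0.17.

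Ndufs5, an accessory subunit on the intermembrane space side, had the most negative change of complex I. It measured 11.12, 11.20 and 11.15 in wild type and 10.94, 11.05 and 10.75 in double knockout mice. All wild type values were above all double knockout values, but the difference of -0.24 ± 0.10 (SE, n = 3 per group) did not pass (limma adjusted p = 0.182). Ndufb1, the dimmest tested subunit at 4.10 to 4.43, lay close to the minimum of 4, and Ndufb4 was below it at 1.46 to 1.79; other probe sets of Ndufb4 also name further genes and were not used. Ndufa11 and Ndufs6 were not analysed here, since their probe sets name several genes.

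Complex II, which links the tricarboxylic acid cycle to the chain, had 4 tested subunits within 0.12 log2 units of no change. Sdha, the flavoprotein that oxidises succinate, was 11.86, 12.04 and 11.94 in wild type and 11.96, 12.10 and 12.10 in double knockout mice (0.11 ± 0.09, adjusted p = 0.486). Sdhd, a membrane anchor that helps form the quinone site, was 11.86, 11.99 and 11.96 against 11.87, 11.81 and 11.76 (-0.12 ± 0.08, adjusted p = 0.388). The genotypes overlapped for both genes, and the intervals of all 4 subunits lay within 1.5-fold. Sdhb, the iron-sulphur subunit, and Sdhc, the other anchor, were at -0.06 and -0.01, each smaller than its standard error of 0.10.

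Complex III had 8 tested subunits with a median of -0.02. Uqcrfs1, the Rieske iron-sulphur protein, and the small subunits Uqcrh and Uqcrq were lower in every double knockout mouse than in any wild type mouse. Their log2 fold changes were -0.06, -0.08 and -0.11, without passing the test. Over all tested probe sets 14.8% were lower without overlap, and 21.3% of those with a mean above 11. The second probe set of Uqcrh, at -0.04, overlapped between the genotypes. For Uqcrb the used probe set overlapped, while its second one, at -0.17, was lower without overlap. Uqcrq, at the low end, was 12.20, 12.25 and 12.25 in wild type and 12.11, 12.16 and 12.10 in double knockout mice (-0.11 ± 0.08, adjusted p = 0.385). Uqcr10, at the high end, was 10.98, 11.53 and 11.36 against 11.24, 11.71 and 11.41 (0.16 ± 0.18, adjusted p = 0.599). Its other 2 tested probe sets had negative values, -0.10 and -0.22, the mean of its probe sets gave -0.05, and without wild type mouse 1 the used one gave 0.0031, so its direction depends on these choices. Its values overlapped and spread more within a genotype than those of the other 7 subunits. The core proteins Uqcrc1 and Uqcrc2 were at -0.01 and -0.03.

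Complex IV, cytochrome c oxidase, has several subunits with tissue-specific isoforms, and the arrays measured mainly the widely expressed ones. With Ndufa4 counted here, since it is now placed in complex IV despite its symbol, 12 of 17 subunit genes were tested, with a median of -0.03. Cox4i1, the common form of a regulatory subunit, was 13.25, 13.28 and 13.27 in wild type and 13.24, 13.25 and 13.24 in double knockout mice (-0.02 ± 0.07, adjusted p = 0.851), while its lung isoform Cox4i2 stayed below 4 at 2.19 to 2.44. Cox6a1 was 13.80, 13.84 and 13.85 against 13.81, 13.83 and 13.79 (-0.02 ± 0.07, adjusted p = 0.886). The muscle isoform Cox6a2 was below 4, at 3.57, 3.65 and 3.65 against 3.31, 3.29 and 3.18. Ndufa4 itself was 12.62, 12.64 and 12.63 against 12.58, 12.61 and 12.57 (-0.05 ± 0.07, adjusted p = 0.704), without overlap, and its paralogue Ndufa4l2, known as a hypoxia-induced gene, was at 1.75 to 2.12.

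The isoform pairs Cox6b and Cox7a held the members with the most negative changes. Cox6b1 was 13.19, 13.28 and 13.24 in wild type and 13.22, 13.22 and 13.20 in double knockout mice (-0.02 ± 0.08, adjusted p = 0.863). Cox6b2, known as a testis isoform, was 7.37, 7.34 and 6.97 against 5.95, 6.90 and 6.69. The genotypes did not overlap, and double knockout mouse 1 was the lowest; the difference of -0.71 ± 0.25 (95% interval -1.32 to -0.11) did not pass (limma adjusted p = 0.140). Cox7a1, the heart and skeletal muscle isoform, was 11.53, 11.79 and 11.70 against 11.27, 11.56 and 11.38 (-0.27 ± 0.12, adjusted p = 0.193), with overlap. The 5 striated muscle markers included 3 that were below 4 on all arrays, and their summed linear level was 76.0 to 86.0 in wild type and 75.5 to 92.1 in double knockout mice.

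The remaining complex IV genes also did not pass. Cox7a2, the isoform common outside muscle, was 13.23, 13.31 and 13.31 in wild type and 13.29, 13.20 and 13.17 in double knockout mice (-0.06 ± 0.08, adjusted p = 0.637). Cox7a2l, a related protein that joins complexes III and IV into supercomplexes, was 11.23, 11.27 and 11.13 against 11.37, 11.36 and 11.35; all double knockout values were above all wild type values, at 0.15 ± 0.08 (adjusted p = 0.270). Cox8a was 11.90, 12.07 and 11.99 against 12.01, 12.15 and 12.03 (0.08 ± 0.09, adjusted p = 0.586), while Cox8b (2.28 to 2.98), Cox8c (2.55 to 2.83) and Cox7b2 (1.23 to 1.39) stayed below 4. Cox7c, at 6.28, 6.62 and 6.62 against 7.46, 6.29 and 7.01, had the most positive change of complex IV (0.41 ± 0.29, adjusted p = 0.392). Of its double knockout mice, 1 lay inside the wild type range and 2 above it, and its interval, -0.27 to 1.10, was the widest of the 83 genes. Over the alternative fits described below its change ranged from -0.11 to 0.78, so its direction depends on the fit.

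Complex V, the ATP synthase, had 17 tested subunits, of which 13 had a negative change (median -0.04), and all 17 intervals lay within 1.5-fold. In the catalytic head, Atp5a1 and Atp5b, its alpha and beta subunits, were at -0.07 ± 0.07 and -0.02 ± 0.08. The peripheral stalk, which holds the head against the rotating parts, had a negative log2 fold change in all 4 of its subunits. These were -0.16 for Atp5o, -0.11 for Atp5pb, -0.10 for Atp5j and -0.08 for Atp5h. The genotypes did not overlap for the latter 3. Over all tested probe sets 14.8% were lower without overlap, and 21.3% of those with a mean above 11. Atp5o, which caps the stalk, was 12.79, 12.77 and 12.86 in wild type and 12.54, 12.80 and 12.61 in double knockout mice (-0.16 ± 0.10, adjusted p = 0.340), and double knockout mouse 2 overlapped the wild type values. None of the 4 passed the adjusted threshold. The second probe sets of Atp5h and Atp5pb, at -0.06 and -0.09, overlapped between the genotypes. That of Atp5o, at -0.23, did not overlap.

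The membrane ring of the ATP synthase is built from copies of a single protein, subunit c, encoded by the genes Atp5g1, Atp5g2 and Atp5g3. Atp5g1 was 11.28, 11.32 and 11.38 in wild type and 11.31, 11.62 and 11.44 in double knockout mice (0.13 ± 0.10, adjusted p = 0.450). Atp5g2 was 10.99 to 11.05 against 10.99 to 11.20 (0.10 ± 0.09, adjusted p = 0.495). Atp5g3 was 13.43, 13.44 and 13.46 against 13.38, 13.35 and 13.35 (-0.08 ± 0.07, adjusted p = 0.493). Only Atp5g3 showed no overlap, and none of the 3 passed.

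Viewed mouse by mouse, the median positions of the complexes differed by hundredths of a log2 unit. The median deviation of the 74 subunits from their wild type means was -0.03, 0.02 and 0.01 in wild type mice 1, 3 and 4 and -0.04, 0.03 and -0.04 in double knockout mice 1, 2 and 3. Double knockout mouse 2 lay inside the wild type range or above it for each complex, at 0.07, 0.01, -0.02, -0.03 and 0.02 for complexes I to V. It was the highest of the 3 double knockout mice for 47 of 74 subunits (63.5%), against 32.8% of all tested probe sets. The same mouse had the lowest 3′ minus 5′ control difference of its group, 0.41 against 0.60 and 0.61; the part of this difference in its subunit values was not tested.

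**Figure D3:**
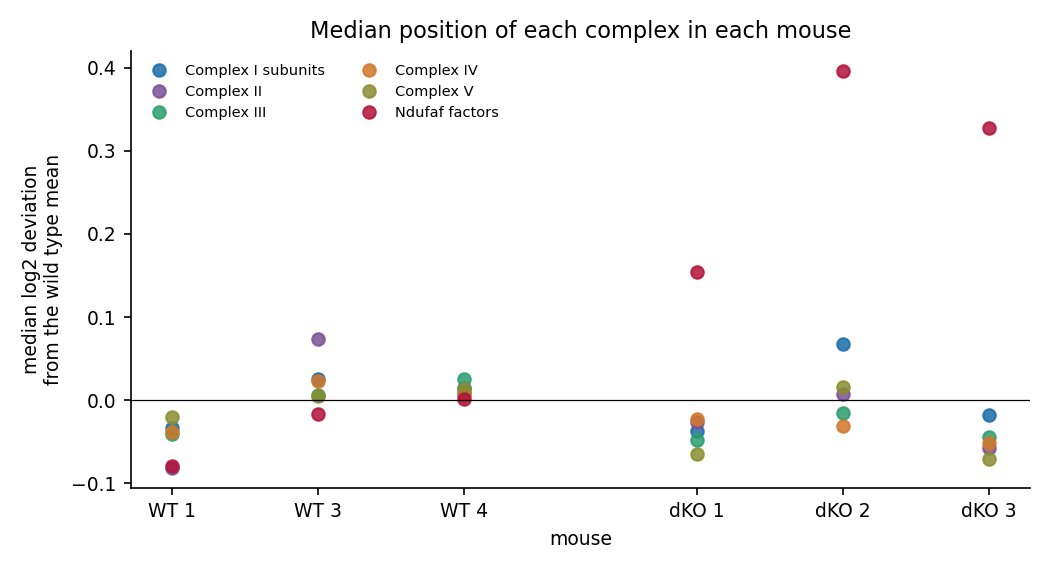
Median deviation from the wild type mean (log2) over the structural subunits of each complex, and over the Ndufaf assembly factors, in each of the 6 mice. The medians of the 5 complexes stay between -0.08 and 0.07 in every mouse, while the assembly factors reach 0.15, 0.40 and 0.33 in double knockout mice 1, 2 and 3.

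The assembly factors of complex I held the only called genes. All 8 were tested and 7 had a positive change, with a median of 0.31 against 0.01 for the complex I subunits; this difference between the lists was not itself tested. Ndufaf4, an early assembly factor, was 8.68, 8.90 and 8.76 in wild type and 9.52, 9.20 and 9.53 in double knockout mice. All double knockout values were above all wild type values, by 0.64 ± 0.12 (SE, n = 3 per group; 95% interval 0.35 to 0.93; limma adjusted p = 0.0418). Its second probe set gave 7.87, 8.08 and 8.04 against 8.51, 8.34 and 8.58, also without overlap, at 0.48 ± 0.10 (adjusted p = 0.0544).

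Ndufaf6, which acts early in the building of the membrane arm, was 7.13, 6.97 and 6.99 in wild type and 7.72, 7.59 and 7.43 in double knockout mice. Its values did not overlap either, and it rose by 0.55 ± 0.11 (95% interval 0.30 to 0.80; adjusted p = 0.0422). Both calls lie close to the threshold. Neither gene passed when any wild type animal (1, 3 or 4) or double knockout animal 1 or 3 was left out, and with double knockout animal 2 left out only Ndufaf4 did (lowest and highest adjusted p over these 6 fits 0.0402 and 0.136 for Ndufaf4, 0.0795 and 0.141 for Ndufaf6). With the 3′ minus 5′ control difference as a covariate the changes were 0.42 (adjusted p = 0.193) for Ndufaf4 and 0.59 (adjusted p = 0.198) for Ndufaf6.

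The other 6 assembly factors did not pass. Ndufaf5, which hydroxylates an arginine of Ndufs7, was 5.63, 5.57 and 5.99 in wild type and 6.18, 6.27 and 6.21 in double knockout mice, without overlap (0.49 ± 0.13, adjusted p = 0.0747). Ndufaf1, part of the intermediate assembly complex, was 7.64, 7.52 and 7.59 against 7.71, 7.95 and 7.84, without overlap (0.25 ± 0.10, adjusted p = 0.156). Ndufaf3, the partner of Ndufaf4, was 7.27, 7.36 and 7.45 against 7.49, 7.81 and 7.53, without overlap (0.25 ± 0.11, adjusted p = 0.214). These 3 genes, with Ndufaf4 and Ndufaf6, make 5 of 8 factors whose double knockout values all lay above the wild type values, against 19.5% of all tested probe sets. Ndufaf3 lies on the chromosome that carries Ifrd2. Of the 8 tested genes on the chromosomes of Ifrd1 and Ifrd2, 0 were called by limma, 0 had an unadjusted p below 0.05, and the median change was -0.01. These 8 were taken by whole chromosome. Their distance from Ifrd1 or Ifrd2 was not examined, so a part of linkage in the change of Ndufaf3 was not tested.

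Ndufaf7, a mitochondrial methyltransferase needed for assembly, was 5.83, 6.08 and 5.77 in wild type and 6.06, 6.07 and 6.67 in double knockout mice (0.38 ± 0.19, adjusted p = 0.245), and a single double knockout mouse stood above the rest. Ndufaf8, which stabilises Ndufaf5, was 10.14, 10.35 and 10.24 against 10.38, 10.31 and 10.42 (0.13 ± 0.09, adjusted p = 0.399). Ndufaf2, a paralogue of Ndufa12 that acts late in assembly, went the other way, at 7.83, 7.85 and 7.99 against 7.78, 7.62 and 7.60. Its double knockout values all lay below the wild type values (-0.22 ± 0.09, adjusted p = 0.187).

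**Figure D4:**
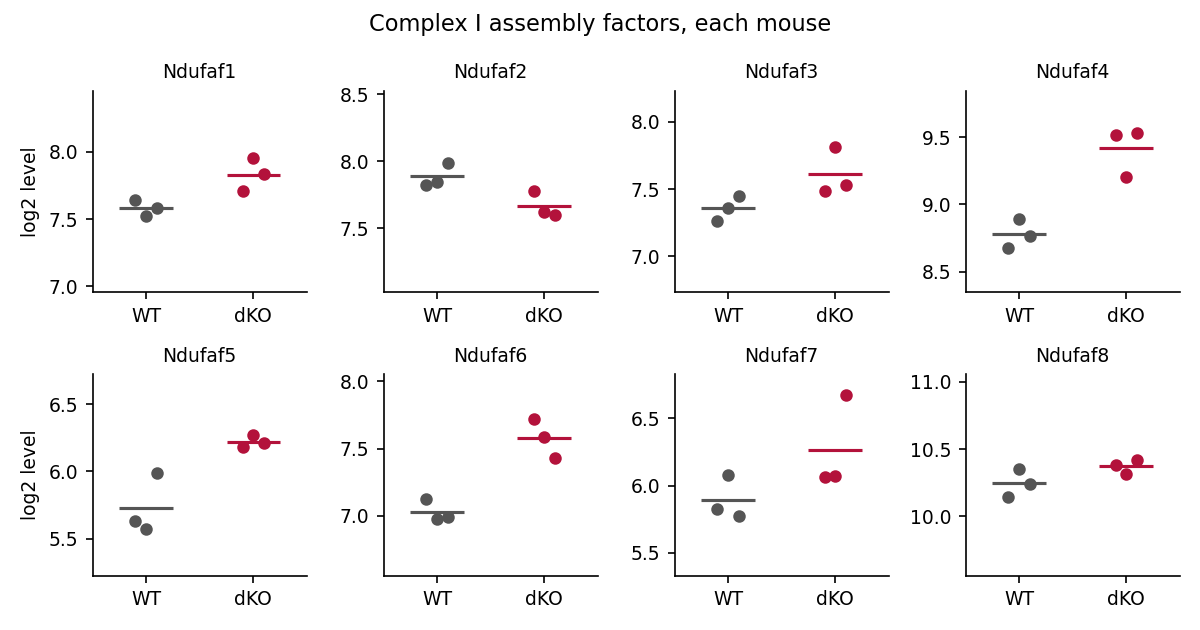
Log2 level of each of the 8 Ndufaf assembly factors in every mouse (points; bars are group means), wild type (WT) beside double knockout (dKO). Ndufaf4 and Ndufaf6 passed the adjusted threshold; Ndufaf1, Ndufaf3 and Ndufaf5 are higher and Ndufaf2 is lower without overlap.

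Promoter windows are shown because assembly factors and subunits can carry the same regulatory letters while their transcripts differed in size of change. RefSeq windows of build GRCm38.p6, from 250 bases before to 50 bases after the annotated start, were matched by gene ID for 74 of the 90 genes (79 windows). The motif of nuclear respiratory factor 1 (NRF1), a known activator of respiratory genes, was searched on both strands as GCGCA followed directly by TGCGC, which reads the same on either strand. It occurred in 6 of 79 windows (7.59%), against 0.971% of 32851 windows of all genes and 1.33% of 21263 windows of protein-coding genes. The 6 genes were Ndufaf4, Ndufaf5, Uqcrc1, Cox6a1, Atp5g2 and Atp5k. It was held by 2 of 7 Ndufaf windows and by 0 of 34 windows of subunits with a complex I symbol, Ndufa4 included. Ndufaf6 had no matched window, so its promoter was not searched. The following 4 windows, 2 of assembly factors and 2 of subunits, are printed 5′ to 3′ on the strand of the gene, with the NRF1 letters in capitals. Ndufaf4 lies at chr4:24897833-24898132 (plus strand), Ndufaf5 at chr2:140170396-140170695 (plus strand), Uqcrc1 at chr9:108936398-108936697 (plus strand) and Cox6a1 at chr5:115348909-115349208 (minus strand).
Ndufaf4: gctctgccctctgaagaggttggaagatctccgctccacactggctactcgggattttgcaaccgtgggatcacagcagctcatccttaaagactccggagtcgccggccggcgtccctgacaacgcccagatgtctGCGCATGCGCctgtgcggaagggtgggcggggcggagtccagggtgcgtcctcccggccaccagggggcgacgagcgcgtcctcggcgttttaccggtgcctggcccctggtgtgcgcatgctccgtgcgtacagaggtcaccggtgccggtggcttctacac
Ndufaf5: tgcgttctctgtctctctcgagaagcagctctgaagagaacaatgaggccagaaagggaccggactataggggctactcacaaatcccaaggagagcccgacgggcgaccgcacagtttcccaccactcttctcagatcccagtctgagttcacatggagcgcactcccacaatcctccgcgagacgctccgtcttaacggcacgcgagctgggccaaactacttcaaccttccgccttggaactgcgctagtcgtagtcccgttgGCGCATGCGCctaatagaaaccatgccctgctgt
Uqcrc1: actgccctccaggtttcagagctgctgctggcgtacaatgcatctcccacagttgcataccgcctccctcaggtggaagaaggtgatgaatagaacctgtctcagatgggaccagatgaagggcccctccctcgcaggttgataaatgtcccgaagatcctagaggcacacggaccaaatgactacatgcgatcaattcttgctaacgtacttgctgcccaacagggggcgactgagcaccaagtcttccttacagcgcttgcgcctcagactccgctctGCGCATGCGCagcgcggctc
Cox6a1: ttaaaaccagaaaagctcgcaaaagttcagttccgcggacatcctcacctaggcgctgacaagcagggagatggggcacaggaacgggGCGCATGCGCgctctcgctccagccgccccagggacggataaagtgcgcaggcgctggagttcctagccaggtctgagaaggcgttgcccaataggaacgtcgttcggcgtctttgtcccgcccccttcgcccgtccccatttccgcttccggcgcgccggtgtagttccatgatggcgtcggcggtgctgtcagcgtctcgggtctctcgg

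In these windows the motif begins at base 138 for Ndufaf4, 267 for Ndufaf5, 281 for Uqcrc1 and 89 for Cox6a1, counted from the 5′ end. Genes with the same letters had unlike changes: 0.64 and 0.49 for Ndufaf4 and Ndufaf5, and -0.02 to 0.10 for the 4 subunits that carry it. Nrf1 itself, named because its motif was searched, was at 0.10 ± 0.11 (adjusted p = 0.588). Other motifs searched on both strands were an ETS site, CCGGAAG, in 19 of 79 windows (24.1%, against 8.86% of all), an E-box, CACGTG, in 7 (8.86%, against 7.15%), a YY1 site, AAGATGGC, in 10 (12.7%, against 2.75%) and an ERR site, TCAAGGTCA, in 2 (2.53%, against 0.423%). In windows of protein-coding genes alone, the shares of these 4 motifs were 11.6%, 7.84%, 3.05% and 0.334%, in the same order. None of the motifs searched contains another, and a match describes letters in the window only.

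Other nuclear-encoded mitochondrial genes were listed by role to place the subunits. Of 52 complex assembly factors, 48 were measured and 45 tested, with a median of 0.17 and 35 positive (53.6% of all tested probe sets were positive). The only calls were Ndufaf4 and Ndufaf6, or 4.44% called, close to the 4.47% of all tested probe sets. The 40 measured factors without an Nduf symbol had 37 tested, 0 called by limma, and a median of 0.11. An unadjusted limma p below 0.05 was reached by 11 of the 37, against 27.1% of all tested probe sets. Without overlap of the genotypes, 13 of the 37 were higher and 2 of the 37 lower, against 19.5% and 14.8% of all tested probe sets. Genes of import, carriers and mitochondrial mass (29 tested, median 0.18, 25 positive) held 2 that rose and none that fell, or 6.90% called against 4.47% of all tested probe sets. These were Timm22, the channel of the carrier translocase (7.22 ± 0.10 to 7.87 ± 0.08, SD; 0.65 ± 0.09, SE; adjusted p = 0.0244), and Tomm40, the pore of the outer membrane (7.98 ± 0.13 to 8.56 ± 0.09; 0.58 ± 0.10; adjusted p = 0.0344).

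Among 18 tested genes of the tricarboxylic acid cycle and pyruvate dehydrogenase (median 0.06, 14 positive), 2 rose and none fell (11.1% called, against 4.47% of all): Idh2, the mitochondrial NADP-dependent isocitrate dehydrogenase (0.89 ± 0.11, adjusted p = 0.0186), and Pdhx, a structural part of pyruvate dehydrogenase (0.64 ± 0.10, adjusted p = 0.0273). Of 21 tested regulators of mitochondrial biogenesis and DNA upkeep (median 0.11, 14 positive), 2 rose and none fell (9.52% called, against 4.47% of all). Pprc1, a coactivator related to PGC-1, rose by 1.07 ± 0.20 (adjusted p = 0.0401). Top1mt, the mitochondrial topoisomerase, lay below 4 in all wild type mice and was at least 1.19-fold higher against that minimum (adjusted p = 0.0264). Top1mt passed the filter only through its double knockout values, so the filter fixed its direction. Its call, 1 of the 2 in this list, is therefore no support for a rise of the list. The 22 genes of cytochrome c, electron entry and quinone synthesis (median 0.00, 11 positive) held 1 that rose (4.55% called, close to the 4.47% of all), Coq5, a methyltransferase of ubiquinone synthesis (0.47 ± 0.09, adjusted p = 0.0439). Leaving out any 1 of the 6 mice left 0 calls by limma in the import, biogenesis and quinone lists and 0 in the tricarboxylic acid list except 1 without double knockout mouse 2; with the 3′ minus 5′ covariate all these lists had 0.

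Of the 13 subunits encoded in mitochondrial DNA, only ND5, a proton-pumping subunit of complex I, was measured. It was 12.53, 12.34 and 12.62 in wild type and 12.26, 12.14 and 12.28 in double knockout mice. All double knockout values lay below the wild type values, but the difference of -0.27 ± 0.10 did not pass (limma adjusted p = 0.158).

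**Figure D5:**
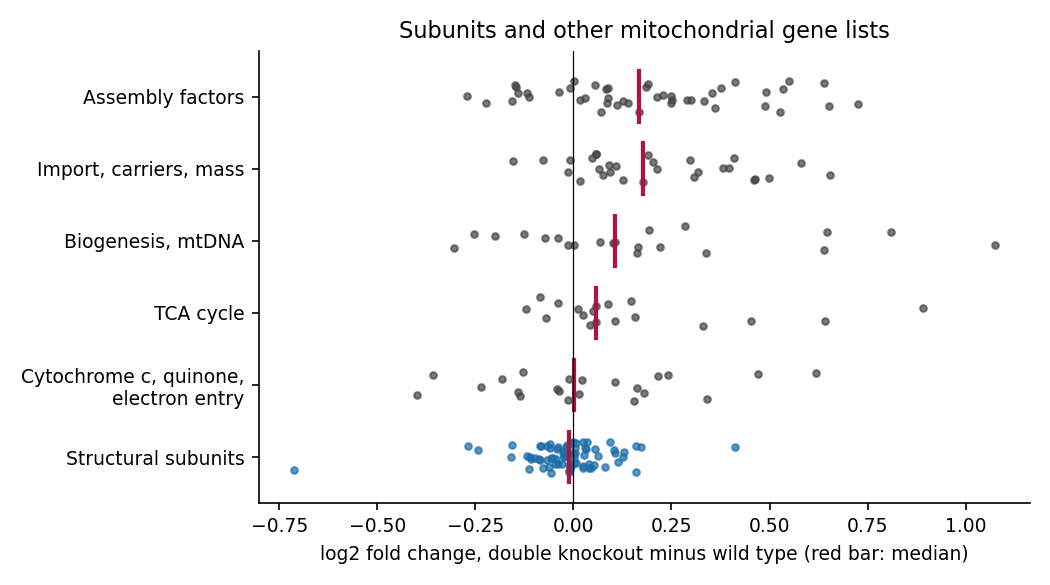
Log2 fold change of every tested gene (points) in the structural subunits, the assembly factors (the 8 Ndufaf genes included) and the other mitochondrial gene lists, with list medians in red. The subunits gather near 0 (median -0.01), while the assembly factors (median 0.17) and import genes (median 0.18) lie mostly above it.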

How the data were processed

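Total RNA of the jejunum of 6 mice was hybridised to Affymetrix whole-genome mouse arrays, 1 mouse per array (3 wild type, 3 double knockout). The authors deposited 1 value per probe set and array, and per the submitters' processing notes the tool was GCRMA 2.18.0; the log2 scale was read from the range of the deposited values, and the sources used here do not give the tool's settings. GCRMA corrects background from probe sequence, so low values carry little order, and a minimum of 4 was set: a probe set was tested if its log2 value was above 4 on at least 3 arrays (18013 of 45101, control probe sets left out).

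Genes were named from the platform annotation: 34958 probe sets name 1 gene, 932 several and 9211 none, and genes named only together with others were not analysed here. A gene was represented by its brightest probe set, by the mean of the 6 arrays. Among the other 89 probe sets of the 90 genes, 68 were tested and 0 were called by limma; 47 of the 68 had the same sign as the used one, and 0 differed from it by over 0.5 in log2 fold change (median absolute difference 0.05). All tested probe sets were fitted together by limma's moderated linear models (limma 3.58.1, R 4.3.3; two-sided, double knockout minus wild type), with Benjamini-Hochberg adjustment over all of them and a threshold of 0.05. Errors are standard errors with n = 3 per group unless given as SD, intervals are limma's unadjusted 95% intervals, and fold limits of 1.2 and 1.5 were applied to those intervals; these limits, the level of 11 and the promoter motifs were chosen after values were seen. The number of arrays limits the precision. The procedure was tested on simulated data. Where all values of a group lay below 4, the fold change was computed with values raised to 4 and given as a bound.

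Named with every value were genes past the threshold, the tested gene with the most positive and most negative change of each complex, genes without overlap and a change of at least 0.5, and isoform sets; the remaining Ndufaf genes, Ndufv1 and Cox7b2 were added after their values were seen. Other lists name up to 2 genes that passed. Members and lists were chosen with earlier results of these data known. Alternatives were other filters, normalizations, variance priors, array weights, a replicate block, a 3′ minus 5′ covariate, gene means and leaving out each mouse. Sequences came from RefSeq (GRCm38.p6).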

Additional observations from a re-analysis of the deposited data

How the results depend on the processing

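The count of called oxidative phosphorylation genes, 2 (both in complex I), was the same with array weights, a minimum of 5, values raised to 4, gene means, median centring, quantile normalization and a trended robust variance prior. It was 0 by limma with the 3′ minus 5′ covariate, with no filter (more probe sets tested), and for structural subunits only, which leaves out both genes; leaving out each mouse gave 0 to 1. Without a filter the adjusted p was 0.0605 for Ndufaf4 and 0.0635 for Ndufaf6. Complexes II to V had 0 calls in every fit run, and the median of all members ranged from -0.03 to 0.01 when a mouse was left out. The median of complex III, -0.02, was -0.054 with gene means and ranged from -0.056 to -0.0027 when a mouse was left out. Assembly factor calls, 2, were 0 with the covariate, 0 with no filter, 5 with gene means and 0 to 1 without 1 mouse. Tricarboxylic acid calls, 2, were 0 with the covariate and 0 to 1 without 1 mouse. Biogenesis calls, 2, were 0 with the covariate, 1 with a minimum of 5, with values raised to 4 or with no filter, 4 with gene means and 0 without 1 mouse. Import calls, 2, were 0 with the covariate, 1 with no filter, 5 with a minimum of 5, 6 with gene means, 9 with the trended robust prior and 0 without 1 mouse. Quinone list calls, 1, were 0 with the covariate, median centring or no filter, 2 with array weights, a minimum of 5, values raised to 4 or gene means, 3 with the trended robust prior and 0 without 1 mouse. The causes were not tested. Calls over all probe sets, 805, were 17 with the covariate, 472 with no filter, 1730 with the trended robust prior and 32 to 435 when a mouse was left out. Ndufaf4 and Ndufaf6 kept a positive change in each of these fits.

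Mouse numbers 1 and 3 occur in both genotypes. Nothing in the labels ties equal numbers to a litter or day, so equal numbers were not taken as pairs. Across probe sets the deviations from the group means correlated at 0.02 for number 1 and 0.30 for number 3. For unlike numbers the correlations were lower, at -0.19 (wild type 1 with double knockout 3) and -0.26 (wild type 3 with double knockout 1). Whether mice of equal number share a litter or day was not tested. The replicate block compared the genotypes only within numbers 1 and 3. Mice whose number occurs in 1 genotype only did not add to its genotype difference. With this block 13 probe sets were called in all, 0 of the oxidative phosphorylation genes, 0 of complex I and 0 of each list. Ndufaf4 was at 0.74 (limma adjusted p = 0.155), Ndufaf6 at 0.53 (limma adjusted p = 0.175), and the median of complex III was -0.050. Because fewer mice entered this comparison, the part of pairing in the loss of calls was not tested.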
